A study of Mus musculus with 60 samples.

Results

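The hippocampus of mice bearing cachectic melanoma cells was sampled 2, 4, 6 and 8 wk after injection. This group, labelled CAC, held 4, 5, 5 and 7 RNA-seq libraries at these weeks, 21 of the 60 in the series, and was taken as every column whose name carries CAC but not NCAC. The change over these weeks was measured as the slope of log2(TPM + 0.5) on week, where TPM is a read count scaled to gene length and library total, and as the step between successive weeks. The test covered 15608 genes, those that reached 1 TPM in 4 or more libraries.

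The other libraries were 20 from mock-injected mice (Con) and 19 from mice given non-cachectic melanoma cells (NCAC), taken at the same weeks. All mice were female with a labelled age of 2 months. The strain is C57BL6/J according to the sample labels and NCI Ath/nude, an athymic strain that lacks mature T cells, according to the series text. The tumour lines are not named beyond melanoma, and whether every library is a separate mouse is not stated. All p-values below therefore refer to the spread among these libraries, part of which may be technical. The mice aged while the tumours grew, so week, age and tumour time cannot be told apart within CAC, and the Con slope is given beside the CAC slope for that reason.

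Cachexia is a wasting syndrome in which muscle and fat are lost in the presence of a tumour. Inflammatory cytokines of the IL6 family signal through the transcription factor STAT3, and the adrenal glucocorticoids rise in wasting illness and act through a receptor that is abundant in hippocampal neurons and glia. The hippocampus also keeps a pool of neural stem cells in the dentate gyrus, and its oligodendrocytes, astrocytes, microglia and vessels respond to both kinds of signal.

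The 21 libraries carried markers of hippocampus, with a median TPM of 48.5 for Prox1 of dentate granule cells, 109 for Wfs1 of CA1 and 145 for Rgs14 of CA2. Recovered depth was 34728327 to 39110246 reads per CAC library. CAC libraries at 2 wk (replicate 1) and at 4 wk (replicates 1 and 4) were rich in genes of the striatum, a neighbouring region, with list means 3.40, 3.56 and 1.49 log2 above the median library. Replicate 3 at 8 wk stood apart in another way, with a glucocorticoid list mean of 0.04 against 0.64 to 1.11 in the other 8 wk libraries and an erythroid list mean of 2.71. Values with and without these libraries are given where they matter. Of the melanocyte genes, Mlana was at 0 in 12 and Slc45a2 in 11 of the 21 libraries, and the highest TPM of Tyr was 0.144.

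Over the 4 sampled times, 1441 genes rose (9.23% of those tested) and 2845 fell (18.2%), 27.5% in either direction, in CAC, at an adjusted p under 0.05 with limma and Benjamini-Hochberg adjustment. The median slope of all genes was -0.008 log2 per week. In Con, 542 genes rose (3.47%) and 1815 fell (11.6%) over the same weeks, and in NCAC 770 rose (4.93%) and 1416 fell (9.07%). The excess of falling genes in CAC depended on the scaling, since median-of-ratios scaling gave 2092 rising and 1937 falling genes. After correction of each library for GC content and transcript length, 1538 rose and 1293 fell in CAC, against 68 and 43 in Con and 395 and 300 in NCAC. Without the libraries rich in striatal genes, 999 rose and 2442 fell.

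**Figure D1:**
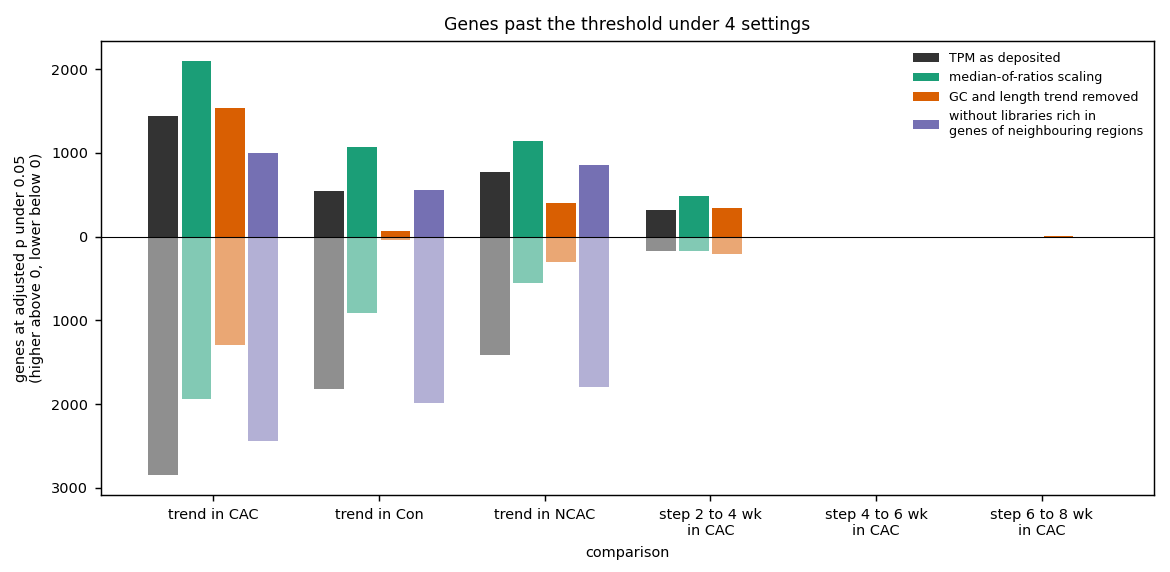
Genes past the threshold in each comparison (x axis) under 4 settings, with the number of higher genes drawn above 0 and of lower genes below 0 (y axis). The CAC slope has 1441 higher and 2845 lower genes with TPM as deposited, and 1538 and 1293 after the GC and length trend is removed, while the steps from 4 to 6 wk and from 6 to 8 wk have at most 10 and 13.

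The slope itself differed between CAC and Con for 1 gene, Spink8 (0.00641% of genes), at the threshold, and 1281 genes had an unadjusted p under 0.05. Against NCAC the slope differed for 22 genes, 15 with a higher and 7 with a lower slope in CAC (0.0961% and 0.0448%). Without replicate 3 at 8 wk these counts were 17 against Con and 162 against NCAC. These were the highest of all fits with 1 library left out, where the lowest were 1 and 2. That library was singled out from these same values, so fits without it are no independent support. A gene that rose in CAC and missed the threshold in Con is therefore not shown to differ between them, apart from the genes named as such below.

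Among rising genes, the largest of the 3 steps was from 2 to 4 wk in 1153 of 1441 (80%), from 4 to 6 wk in 178 and from 6 to 8 wk in 110. Falling genes were spread more evenly, with 1381 of 2845 (48.5%) moving most from 2 to 4 wk and 988 (34.7%) from 6 to 8 wk. These splits use TPM as deposited and all CAC libraries, and were not made for Con. The genes called for the 2 to 4 wk step itself numbered 0 without the libraries rich in striatal genes and 1 without 2 wk replicate 1. All 3 steps had the sign of the slope in 488 rising and 1356 falling genes. In 418 genes (2.68%) every 8 wk library lay above every 2 wk library, and in 1414 (9.06%) every one lay below.

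Spink8, a serine protease inhibitor of the Kazal type that marks CA1 pyramidal neurons, had the smallest p of all slopes. It lies on chromosome 9 at 109812280 to 109826633 (mm10). Its TPM was 34.3, 43.7, 28.5 and 47.0 at 2 wk, 64.2, 84.6, 34.1, 88.7 and 70.1 at 4 wk, and 119, 80.1, 94.5, 87.3 and 70.7 at 6 wk. At 8 wk it ran from 82.7 through a median of 104 to 117. The 6 and 8 wk libraries all lay above the 2 wk libraries, and 1 of the 4 wk libraries lay among them. The slope was 0.23 ± 0.03 log2 per week (SE, adjusted p = 5.5e-08 with limma), and the fitted 8 wk mean was 2.73-fold the 2 wk mean. Con stayed between group means of 64.3 and 82.7 TPM with a slope of -0.01, and the difference of slopes was 0.23 (adjusted p = 0.000544). The 4 CAC libraries at 2 wk lay below all 5 Con libraries of that week, which ran from 78.9 to 91.9, so that the rise started from a level under that of Con.

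Scgb3a1, a secreted secretoglobin, had the largest positive slope of any gene named by the rule. Its TPM was 0.174, 0, 0 and 0.35 at 2 wk, 0.463, 1.51, 0.495, 9.73 and 0.167 at 4 wk, and 4.41, 3.22, 3.5, 9.78 and 0.641 at 6 wk. At 8 wk the lowest, median and highest were 0.429, 6.8 and 20.7. Replicate 3 was the lowest 8 wk library, and the ranges of 2 and 8 wk did not overlap. The slope was 0.58 ± 0.08 log2 per week (adjusted p = 7.9e-06), with 0.00 in Con. Against NCAC the slope differed by 0.53 (adjusted p = 0.039), and against Con by 0.57 (adjusted p = 0.0881, over the threshold). The call against NCAC was lost in 17 of 40 fits with 1 library left out. Without replicate 3 at 8 wk the difference of Scgb3a1 from Con was 0.66 (adjusted p = 0.000479).

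Lrg1, a secreted leucine-rich glycoprotein of the acute phase response, had a TPM of 0.0771, 0.156, 0.148 and 0.232 at 2 wk and of 1.23, 4.61, 0.658, 5.29 and 0.667 at 4 wk. At 6 wk it was 3.4, 2.31, 1.39, 3.9 and 1.85, and at 8 wk it ran from 0.633 through 4.36 to 6.09. Every library from 4 wk on lay above every 2 wk library, replicate 3 at 8 wk being the lowest of its week. The slope was 0.39 ± 0.05 (adjusted p = 6.21e-06), with 0.07 in Con. Ch25h, which makes 25-hydroxycholesterol, rose by 0.36 ± 0.05 (adjusted p = 6.21e-06), from 0.0772 to 0.546 TPM at 2 wk to 1.86 to 4.88 at 8 wk.

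**Figure D2:**
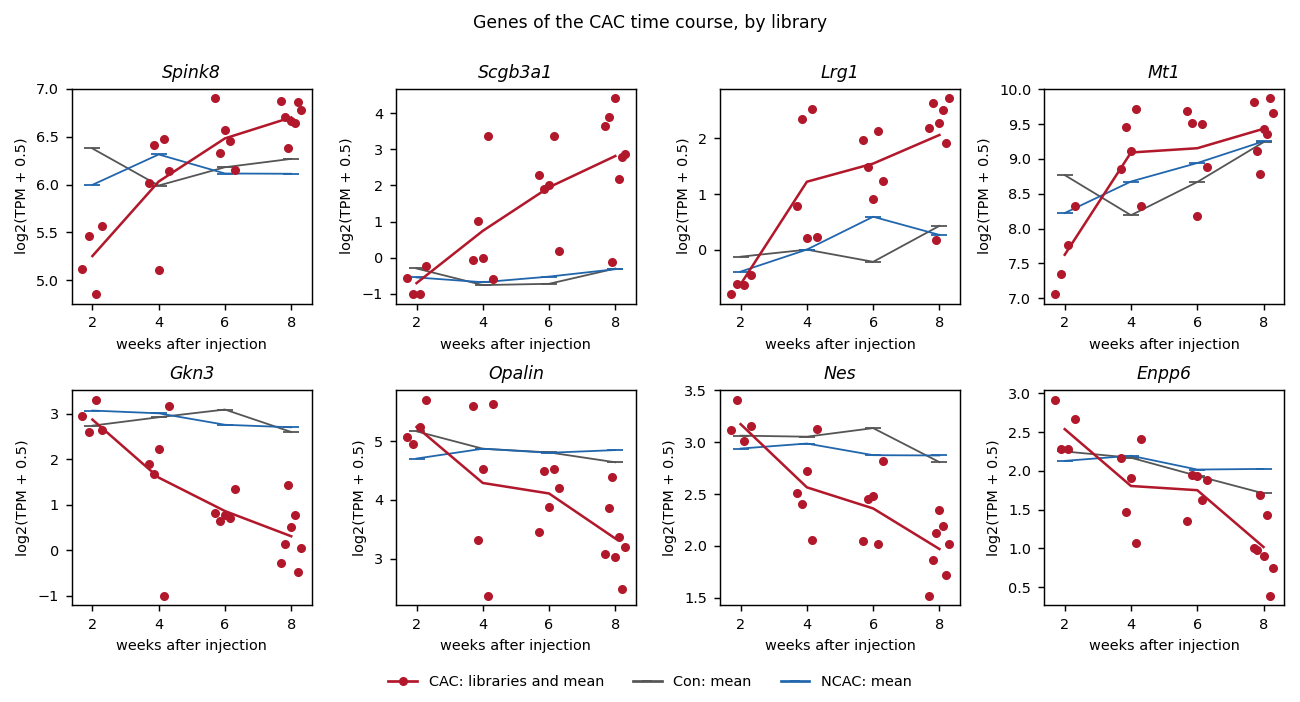
log2(TPM + 0.5) of 8 genes (y axes) by week after injection (x axes), with each CAC library as a red point, the CAC mean as a red line and the Con and NCAC means as grey and blue lines. Spink8 climbs from 28.5 to 47.0 TPM at 2 wk to 82.7 to 117 at 8 wk, and Gkn3 drops from 5.53 to 9.33 to 0.22 to 2.2, while their Con and NCAC slopes lie between -0.07 and 0.01.

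Rtp1, a receptor transporting protein first known from olfactory neurons, rose by 0.42 ± 0.08 log2 per week (adjusted p = 0.000117), from 0.235 to 0.709 TPM at 2 wk to a median of 6.23 at 8 wk. Its slope differed from that of NCAC by 0.49 (adjusted p = 0.039 with limma), a call lost in 15 of 40 fits with 1 library left out. Plin4, a lipid droplet coat protein, was 2.92, 8.15, 3.35 and 2.05 TPM at 2 wk and 62.1, 34.4, 23.2, 33.9 and 33.6 at 6 wk. At 8 wk it ran from 2.53 to 60.4 with a median of 36.9, the low value again being replicate 3. At 4 wk the values of 39.7 and 65.4 in replicates 2 and 4 stood over 2.15 to 8.54 in the other libraries. The slope of Plin4 was 0.45 ± 0.11 (adjusted p = 0.00208), against -0.03 in Con. The chemokine Ccl28 rose by 0.36 ± 0.10 (adjusted p = 0.00631).

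The remaining genes among the 10 steepest rises were Ccdc85b, Erdr1, Hist1h2al and Prr7. They rose in Con as well, with Con slopes of 0.34, 0.34, 0.29 and 0.28 beside CAC slopes of 0.41, 0.39, 0.35 and 0.34, and the slopes did not pass the test for a difference. Erdr1 and the histone gene Hist1h2al share sequence with near-identical copies, so their values are uncertain. The rise of Hist1h2al was lost when the GC and length trend was removed. Expression also changed with gene length: the mean slope of log2 expression on doubling of length was 0.081 at 2 wk and -0.021 at 8 wk in CAC, and its part in the rise of short genes was tested only through that removal.

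Gkn3, a secreted protein of arterial endothelium, was the steepest falling gene that kept its call in every alternative. Its TPM was 7.18, 5.53, 9.33 and 5.75 at 2 wk, 3.23, 2.7, 4.15, 0 and 8.54 at 4 wk, and 1.26, 1.07, 1.22, 1.14 and 2.02 at 6 wk. Its 8 wk libraries ran from 0.22 through 0.594 to 2.2, below every 2 wk library. The slope was -0.41 ± 0.06 (adjusted p = 8.46e-06), with -0.01 in Con, where the group means stayed at 5.66 to 8.36 TPM. Serpind1, the thrombin inhibitor heparin cofactor, fell by 0.30 log2 per week with an SE of 0.05 (adjusted p = 2.32e-05), from 8.07 to 10.8 TPM at 2 wk to 1.16 to 2.58 at 8 wk. Its 4 wk libraries were at 3.03 to 4.28 except replicate 5 at 11.1, and the Con slope was 0.02.

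Of the other steepest falls described here, Adora2a, Shox2, Zic1 and Isl1 are genes of striatum, thalamus or other forebrain regions. Adora2a, the adenosine receptor of striatal neurons, was 71.4 TPM in replicate 1 at 2 wk and 116 in replicate 1 at 4 wk. The fall of Adora2a was lost without either of these libraries, without 4 wk replicate 4 or 8 wk replicates 1, 2, 3 or 7, and in 6 of the other alternatives. The fall of Shox2, Zic1 and Isl1 kept its call without the libraries rich in striatal genes. Tpm3-rs7 and Apoo-ps, a tropomyosin-related sequence and a pseudogene, swung between near 0 and full level from library to library, may share reads with their parent genes, and lost their calls in 8 and 4 alternatives. Opalin, the last, is described with the oligodendrocytes.

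The list of genes induced by glucocorticoids held 25 tested members, of which 17 rose and none fell in CAC, beside 9.23% of all genes rising. Its median slope was 0.160 log2 per week, against 0.011 in Con, where no member passed, and -0.028 in NCAC, where 2 did. The rise started from a level under that of the other arms. The summed TPM of the list had a 2 wk median of 996 in CAC, 1280 in Con and 1370 in NCAC. At 8 wk these medians were 2110, 1580 and 1560. The median step of the list in CAC was 0.489 from 2 to 4 wk, 0.257 from 4 to 6 wk and 0.021 from 6 to 8 wk. Between 16 and 21 members rose when each CAC library was left out, 21 without replicate 3 at 8 wk, and 17 without the libraries rich in striatal genes. No member passed the test of the slope difference against Con, and 1 did against NCAC. Without replicate 3 at 8 wk, 1 passed against Con, Cdkn1a, and 10 against NCAC. That library was singled out by its low mean of this same list, so these counts are no independent support. In whole tissue, a fall or rise in the number of cells of a type and a change in RNA per cell cannot be told apart, here and in the lists that follow.

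Promoter sequences are shown for the 3 members that carry a palindromic glucocorticoid receptor element within 250 bases before the transcript start (RefSeq, GRCm38.p6, plus strand, 5′ to 3′) in capitals. The searched element is the consensus inverted repeat with a spacer of 3 free bases, and it reads the same on both strands. They lie at chr10:21993640-21993889 for Sgk1, chr4:133240568-133240817 for Map3k6 and chr8:94178839-94179088 for Mt1.
Sgk1: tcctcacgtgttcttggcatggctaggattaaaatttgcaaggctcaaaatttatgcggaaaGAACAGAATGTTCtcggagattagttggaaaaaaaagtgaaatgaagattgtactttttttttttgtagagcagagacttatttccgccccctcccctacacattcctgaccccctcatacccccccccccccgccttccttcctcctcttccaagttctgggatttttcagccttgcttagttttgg
Map3k6: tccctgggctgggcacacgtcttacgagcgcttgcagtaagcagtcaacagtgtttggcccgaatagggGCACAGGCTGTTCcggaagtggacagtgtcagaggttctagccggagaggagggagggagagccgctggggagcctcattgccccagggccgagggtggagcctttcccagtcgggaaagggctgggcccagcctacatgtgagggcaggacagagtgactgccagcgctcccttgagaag
Mt1: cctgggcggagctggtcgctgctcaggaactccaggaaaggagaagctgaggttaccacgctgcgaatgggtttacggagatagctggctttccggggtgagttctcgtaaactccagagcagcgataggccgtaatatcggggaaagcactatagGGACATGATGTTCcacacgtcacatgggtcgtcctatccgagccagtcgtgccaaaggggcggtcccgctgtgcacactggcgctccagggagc
The matches begin 188, 181 and 94 bases before the start. The same element was present in 119 of 27025 mouse promoters of this length (0.44%) and in 3 of the 23 members with a sequence (13%). A match describes these letters only, and the other members with a sequence have no match in this window.

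Sgk1, a kinase that raises ion transport under corticosteroids, was 50.7, 65.1, 47.3 and 41.6 TPM at 2 wk, 46.5, 92.9, 62.0, 114 and 33.2 at 4 wk, and 121, 118, 98.9, 103 and 123 at 6 wk. The 8 wk values ran from 65.6 through 99.0 to 111. All 6 and 8 wk libraries lay above all 2 wk libraries, while the 4 wk libraries spanned both levels. The slope was 0.16 ± 0.03 (adjusted p = 0.000808), with -0.01 in Con. Map3k6, a stress-activated kinase kinase kinase, was 0.837, 1.46, 0.586 and 0.659 TPM at 2 wk, 1.38, 5.85, 1.69, 8.78 and 0.413 at 4 wk, and 6.77, 3.57, 2.54, 6.25 and 3.17 at 6 wk. At 8 wk its lowest, median and highest were 1.15, 6.12 and 10.5, the lowest being replicate 3. It rose by 0.32 ± 0.06 (adjusted p = 0.000308).

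Mt1, a metallothionein that binds zinc and copper, was 133, 162, 217 and 320 TPM at 2 wk, 464, 701, 552, 841 and 319 at 4 wk, and 823, 733, 289, 727 and 470 at 6 wk. At 8 wk Mt1 ran from 441 through 687 to 935, above every 2 wk library. The slope was 0.25 ± 0.04 (adjusted p = 2.34e-05). Con also moved, from a mean of 441 TPM at 2 wk to 605 at 8 wk with a slope of 0.09, and the difference of the slopes of Mt1 did not pass (adjusted p = 0.462). All 3 metallothioneins rose in CAC and 2 in NCAC, beside 9.23% and 4.93% of all genes. Their summed TPM had a 2 wk median of 555 in CAC, 1200 in Con and 1040 in NCAC, and 1680, 1940 and 1590 at 8 wk. Mt3 lost its rise when the GC and length trend was removed.

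Other members of the glucocorticoid list included Ddit4, an inhibitor of mTOR signalling, which rose from a mean of 28.2 to 78.0 TPM (0.21 ± 0.04 log2 per week, adjusted p = 7.38e-05). Cdkn1a, the cell cycle inhibitor p21, rose from 7.19 to 24.7 TPM (0.25 ± 0.05, adjusted p = 0.000393). Cebpd, a transcription factor of the acute phase, rose from 1.48 to 5.27 TPM. Tmem252, an uncharacterised membrane protein, rose from 1.02 to 5.11 TPM, and its slope exceeded that in NCAC by 0.36 (adjusted p = 0.039 with limma). That call was lost in 20 of 40 fits with 1 library left out. The 4 wk libraries split within this list: replicates 2 and 4 had list means of 0.96 and 1.09 above the median library, and the other 3 had -0.41 to 0.14. Replicate 4 is 1 of the libraries rich in striatal genes and replicate 2 is not.

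**Figure D3:**
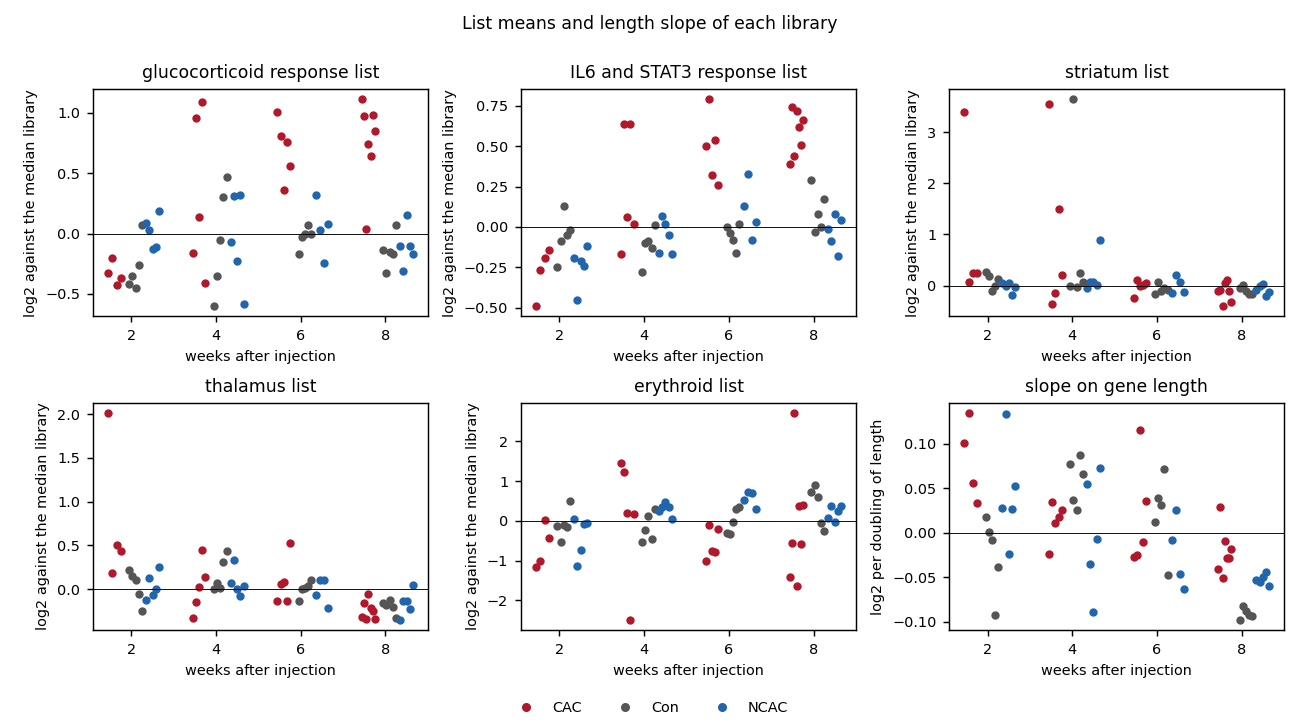
Mean log2 of 5 gene lists against the median library, and the slope of expression on gene length, for each library (y axes) by week (x axes), with CAC in red, Con in grey and NCAC in blue. The glucocorticoid list lies at -0.43 to -0.20 in CAC at 2 wk and at 0.64 to 1.11 at 8 wk except replicate 3 at 0.04, and the striatum list reaches 3.40 and 3.56 in single CAC libraries at 2 and 4 wk.

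Genes responding to IL6 and STAT3 rose in 11 of 19 tested members, beside 9.23% of all genes. Only 1 member, the co-receptor Il6st, fell, by 0.06 log2 per week. The median slope was 0.084, against 0.002 in Con (2 rose) and 0.027 in NCAC (4 rose and 2 fell), and the steps in CAC were 0.322, 0.224 and 0.021. Of all genes, 3.47% rose in Con, and 4.93% rose and 9.07% fell in NCAC. Besides Lrg1 and Ch25h, these members were led by Lcn2, an iron-siderophore binding lipocalin, at 0.119 to 0.401 TPM at 2 wk and 1.03 to 6.55 at 8 wk (0.33 ± 0.05, adjusted p = 2.96e-05). Bcl3, a nuclear partner of NF-kB, rose from 0.186 to 1.16 TPM (0.19 ± 0.03, adjusted p = 0.000106). Socs3, the feedback inhibitor of STAT3, rose from 1.81 to 3.91 TPM, and the receptor subunits Il6ra and Osmr rose from 4.33 to 5.77 and from 2.13 to 3.57. Lcn2 and Cebpd stand in both this list and that of glucocorticoids. Of 16 members with a promoter sequence 1, Icam1, held the STAT element TTCCNGGAA, beside 1.09% of all promoters, and the slope of Icam1 was 0.07 ± 0.04 (adjusted p = 0.137).

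Markers of astrocyte reactivity rose in part, 6 of 17 members with none falling, beside 9.23% of all genes rising. Among them was Gfap, the intermediate filament of astrocytes, from 253 to 345 TPM (0.07 ± 0.02, adjusted p = 0.0235 with limma). Serpina3n, a protease inhibitor, rose from 196 to 253 TPM, and Aspg, an asparaginase, from 4.47 to 8.52. Lcn2 and Osmr also rose in this list, and both stand in the IL6 and STAT3 list too, so the counts of these lists share genes. The 6 wk mean of Gfap was 455 TPM, above the 8 wk mean. Without the libraries rich in striatal genes 4 members rose. Homeostatic astrocyte genes went mostly the other way, with 9 of 17 falling and 2 rising, beside 18.2% of all genes falling. The GABA transporter Slc6a11 fell from 192 to 123 TPM (-0.10 ± 0.02, adjusted p = 1.61e-05), and the water channel Aqp4 from 120 to 67.8 (-0.13 ± 0.02, adjusted p = 0.000116). Fabp7, a lipid carrier of radial glia and some astrocytes, fell from 66.0 to 27.9 TPM (-0.20 ± 0.04, adjusted p = 0.00127). Aldoc, a glycolytic aldolase of astrocytes, rose from 682 to 813 TPM. The count of falling members was 4 to 10 across the settings and the libraries left out, being 6 under median-of-ratios scaling and 4 with the GC and length trend removed.

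Homeostatic microglia genes fell in 5 of 14 members and rose in none, at a median slope of -0.043, with none called in Con, beside 18.2% of all genes falling. Without 2 wk replicate 1, 8 wk replicate 1 or 8 wk replicate 6, 2 members fell. P2ry13, a purine receptor, fell from a mean of 20.8 to 12.2 TPM (-0.12 ± 0.03, adjusted p = 0.00352), P2ry12 from 71.6 to 48.5 and the fractalkine receptor Cx3cr1 from 51.6 to 35.9. The call of Cx3cr1 was lost under median-of-ratios scaling, which left 3 falling members. Among 18 genes of activated microglia, Apoe, a lipid carrier also made by astrocytes, rose from 846 to 1320 TPM (0.09 ± 0.02, adjusted p = 0.00326 with limma). In this list 3 genes fell, near the 18.2% of all genes. None of them fell under median-of-ratios scaling, and 1 fell without 2 wk replicate 2 or 8 wk replicate 1. Complement genes rose in 3 of 13 members, C1qc, C4b and C1qb, beside 9.23% of all genes. Only C1qc did so without the libraries rich in striatal genes. Without 2 wk replicate 1 alone, 1 complement gene rose. Interferon response genes rose in 1 of 24 members and MHC class I presentation genes in 1 of 14 in CAC, against 4 of 14 in Con. Over all genes 9.23% rose in CAC and 3.47% in Con, so neither CAC count exceeds that share.

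Genes of myelinating oligodendrocytes fell in 15 of 17 members with none rising, at a median slope of -0.127, beside 18.2% of all genes falling. In Con 4 fell at a median of -0.068 and in NCAC none did at -0.027, beside 11.6% and 9.07% of all genes falling. No member passed the test of the slope difference. The median steps were -0.577 from 2 to 4 wk, 0.163 from 4 to 6 wk and -0.485 from 6 to 8 wk. Between 12 and 15 members fell when each CAC library was left out, and 14 to 15 in the settings for scaling, GC and length, and striatal genes.

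Opalin, a membrane glycoprotein of myelin, was 33.2, 30.5, 37.4 and 51.5 TPM at 2 wk, 47.8, 9.46, 22.6, 4.67 and 49.2 at 4 wk, and 10.4, 22.0, 14.3, 22.5 and 17.9 at 6 wk. At 8 wk Opalin ran from 5.06 through 8.64 to 20.5, and all 6 and 8 wk libraries lay below all 2 wk libraries. It fell by 0.29 log2 per week with an SE of 0.05 (adjusted p = 0.000152), beside -0.08 in Con. Ugt8a, which makes the galactolipids of myelin, was 60.9, 50.1, 41.0 and 62.0 TPM at 2 wk, 35.5, 16.9, 30.2, 11.7 and 44.4 at 4 wk, and 16.8, 25.4, 38.9, 20.4 and 32.7 at 6 wk, and ran from 9.4 through 18 to 28.3 at 8 wk. Its slope was -0.24 ± 0.04 (adjusted p = 5.31e-05), and it also fell in Con at -0.12. Mbp, myelin basic protein, fell from a mean of 932 to 544 TPM (adjusted p = 0.00158). Replicates 2 and 4 at 4 wk, the libraries with the high glucocorticoid list, had the lowest values of Opalin and Ugt8a in their week.

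Oligodendrocyte precursor and newly formed oligodendrocyte genes fell in 6 of 14 members in CAC and in 4 in Con. The shares of all genes falling were 18.2% and 11.6%. Enpp6, a choline phosphodiesterase that marks newly formed oligodendrocytes, was 7.04, 4.37, 4.37 and 5.88 TPM at 2 wk, 3.99, 2.26, 3.27, 1.6 and 4.81 at 4 wk, and 2.06, 3.37, 3.32, 2.59 and 3.19 at 6 wk. By 8 wk it ran from 0.809 through 1.47 to 2.71, below all 2 wk libraries. Its slope of -0.23 ± 0.03 (adjusted p = 7.9e-06) differed from that in NCAC by -0.21 (adjusted p = 0.0466 with limma). That difference was lost in 25 of 40 fits with 1 library left out. Gpr17, a receptor of differentiating precursors, fell from 46.1 to 24.5 TPM (-0.14 ± 0.02, adjusted p = 7.9e-06), and Pdgfra, the receptor that defines precursors, from 32.1 to 26.3 (-0.04 ± 0.01, adjusted p = 0.0205).

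Neurogenesis genes fell in 6 of 15 members and rose in none, with 2 falling in Con. Of all genes, 18.2% fell in CAC and 11.6% in Con. Nes, an intermediate filament of neural stem cells and of some endothelium, was 8.2, 10.1, 7.56 and 8.43 TPM at 2 wk, 5.19, 4.81, 6.09, 3.66 and 8.26 at 4 wk, and 3.64, 4.96, 5.07, 3.54 and 6.55 at 6 wk. Nes at 8 wk ran from 2.37 through 3.56 to 4.59, so that the 2 and 8 wk ranges were far apart. The slope was -0.19 ± 0.03 (adjusted p = 6.21e-06), and it differed from that in NCAC by -0.17 (adjusted p = 0.0355 with limma). The difference was lost in 15 of 40 fits with 1 library left out. Igfbpl1, expressed in newborn neurons, fell from 2.39 to 0.538 TPM (-0.23 ± 0.03, adjusted p = 8.1e-06). Eomes, a transcription factor of intermediate progenitors, fell from 1.85 to 0.205 TPM (-0.25 ± 0.07, adjusted p = 0.00421), though its 2 wk libraries ranged from 0.552 to 3.48. Dcx, of migrating neuroblasts, fell from 13 to 10 TPM (-0.07 ± 0.02, adjusted p = 0.00735).

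Proliferation genes fell in 5 of 12 members, and in 2 in Con, beside 18.2% and 11.6% of all genes. Mki67, the cycling cell marker, was 1.03, 1.17, 0.654 and 0.956 TPM at 2 wk and had a median of 0.312 at 8 wk with a lowest value of 0.147 (-0.14 ± 0.02, adjusted p = 4.89e-05). Top2a, the topoisomerase of dividing cells, fell from a mean of 0.839 to 0.289 TPM (adjusted p = 5.22e-05). In Con both had slopes of -0.05 and -0.07, and neither difference passed.

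Endothelial and blood-brain barrier genes moved in both directions, 4 rising and 5 falling of 18, beside 9.23% and 18.2% of all genes. Ly6c1, a surface antigen of brain endothelium, was 47.0, 37.7, 38.0 and 38.4 TPM at 2 wk, 47.2, 78.1, 50.8, 85.1 and 47.9 at 4 wk, and 90.7, 76.0, 56.4, 79.9 and 58.9 at 6 wk. At 8 wk it ran from 48.6, in replicate 3, through 77.2 to 85.1, and the 2 and 8 wk ranges did not overlap. It rose by 0.13 ± 0.02 (adjusted p = 9.95e-06). The glucose transporter Slc2a1 rose from 82.3 to 106 TPM and the lipid transporter Mfsd2a from 31.3 to 51.0. The receptors Tek and Kdr fell, from 13.6 to 8.11 TPM and from 9.45 to 5.2.

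Angiogenic signalling genes fell in 7 of 16 members, beside 18.2% of all genes, and Vegfb rose. Apln, the ligand of tip cells, was 26.6, 16.9, 13.6 and 16.1 TPM at 2 wk, 10.6, 8.4, 11.4, 8.82 and 16.8 at 4 wk, and 10.3, 9.53, 11.5, 8.3 and 9.68 at 6 wk. At 8 wk it ran from 5.36 through 8.27 to 13, below the 2 wk libraries (-0.16 ± 0.03, adjusted p = 1.55e-05), and the Con slope was -0.02. Its receptor Aplnr fell from 0.958 to 0.184 TPM and Angpt2, a Tek ligand, from 2.4 to 0.973. Vegfa fell from 49.0 to 37.8 TPM (-0.06 ± 0.02, adjusted p = 0.0142).

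Pericyte and smooth muscle genes fell in 5 of 12 members at a median slope of -0.082, beside 18.2% of all genes falling. Among them Vtn, vitronectin, fell from 110 to 66.5 TPM (adjusted p = 0.000554 with limma). Meningeal fibroblast genes fell in 7 of 14 at a median of -0.140, among them the collagens Col3a1, from 2.77 to 0.519 TPM (-0.27 ± 0.05, adjusted p = 0.000272), and Col1a2, from 5.16 to 1.96. In Con no member of either list passed, at medians of 0.012 and 0.010. Without the libraries rich in striatal genes 7 pericyte and 10 meningeal members fell, and without 2 wk replicate 2 the meningeal count was 4. How much of the meninges stayed on each dissected hippocampus is not known from these files, and its part was not tested. Tnc, the matrix protein tenascin C, fell from 6.47 to 2.53 TPM (-0.20 ± 0.03, adjusted p = 9.42e-06).

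**Figure D4:**
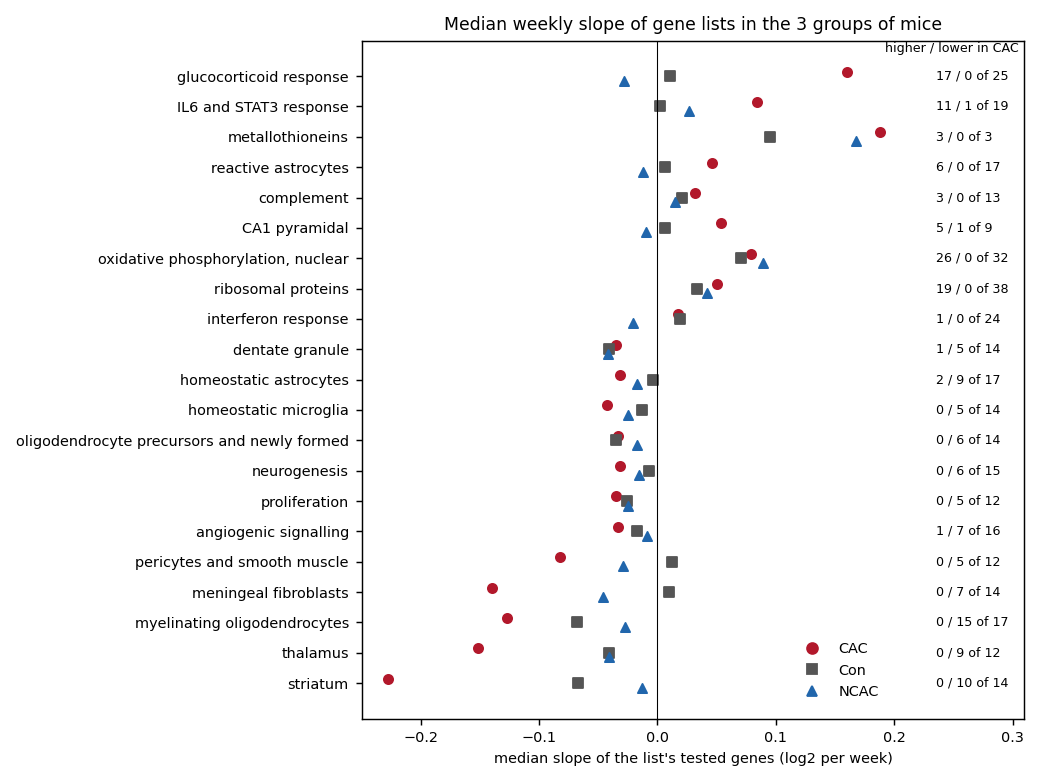
Median slope of each gene list (x axis, log2 per week) in CAC (red circles), Con (grey squares) and NCAC (blue triangles), with the number of members higher and lower in CAC at the right. The glucocorticoid list lies at 0.160 in CAC and 0.011 in Con, the myelinating oligodendrocyte list at -0.127 and -0.068, and the oxidative phosphorylation list at 0.079 and 0.071.

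CA1 pyramidal markers other than Spink8 rose by less. Of 9 tested members, Spink8 included, 5 rose, Spink8 being 1 of them, and 1 fell. Pou3f1, a POU transcription factor, rose from 12.4 to 25.3 TPM (0.14 ± 0.02, adjusted p = 1.04e-05 with limma), and Fibcd1 from 97.0 to 120 (0.05 ± 0.02, adjusted p = 0.00762). The Con slope of Pou3f1 was 0.09. Dentate granule markers fell in 5 of 14 members and rose in 1, and in Con 3 and in NCAC 7 fell. Of all genes, 18.2% fell and 9.23% rose in CAC, while 11.6% fell in Con and 9.07% in NCAC. The dentate count in CAC was 3 falling without 2 wk replicates 1 or 2 or 8 wk replicate 1, and none rising without the first or the second of these. Prox1, which sets granule cell identity, fell from 56.2 to 43.0 TPM, with the same slope of -0.06 in CAC and Con. Of 13 CA2 and CA3 markers 1 rose and 2 fell, and none did without 2 wk replicate 1. Immediate early genes rose in 6 of 20 members in CAC and in 4 in Con, beside 9.23% and 3.47% of all genes. With each CAC library left out, 4 to 8 members rose in CAC. Junb rose from 11 to 38.2 TPM (0.30 ± 0.06, adjusted p = 0.00018 with limma) beside a Con slope of 0.21.

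Fuel and lipid genes were split, 6 rising and 6 falling of 20, with none called in Con or NCAC. Among all genes 9.23% rose and 18.2% fell in CAC. Besides Plin4, Pdk4, the kinase that holds back glucose oxidation, rose from 17.9 to 31.1 TPM (0.13 ± 0.03, adjusted p = 0.00258). Pnpla2, the fat-cell triglyceride lipase, rose from 12.9 to 22.2 TPM. Hadha, of mitochondrial fat oxidation, fell from 39.9 to 32.7 TPM, a fall lost with the GC and length trend removed. Cholesterol synthesis genes fell in 6 of 21, beside 18.2% of all genes, and in 4 without 2 wk replicate 1, with Dhcr7, the last enzyme of the pathway, from 34.2 to 24.2 TPM (adjusted p = 0.000308). The iron exporter Slc40a1 fell from 8.38 to 4.52 TPM (-0.14 ± 0.02, adjusted p = 2.34e-05), while the ferritin chain Fth1 rose from 3140 to 4380.

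Nuclear genes of oxidative phosphorylation rose in 26 of 32 members at a median slope of 0.079, and ribosomal protein genes in 19 of 38 at 0.050. The share of all genes that rose was 9.23%. Genes of these lists rose in the other arms too: 10 oxidative phosphorylation genes in Con at a median of 0.071 and 23 in NCAC at 0.089. The shares of all genes rising there were 3.47% and 4.93%. Cox8a, a subunit of cytochrome oxidase, was 173, 132, 245 and 480 TPM at 2 wk, 484, 436, 565, 555 and 477 at 4 wk, and 757, 403, 227, 661 and 325 at 6 wk, and ran from 529 through 798 to 1190 at 8 wk. Its slope was 0.23 ± 0.05 in CAC (adjusted p = 0.000584) and 0.17 in Con. The counts rested partly on single libraries, falling to 12 and 7 without replicate 2 at 2 wk. That library had the steepest positive slope of expression on gene length of the 21, at 0.134, and these are short genes. A part of gene length in these counts was not tested beyond removal of the GC and length trend, and the counts of these lists after that removal are not given here. Over all genes, the removal took the rising genes from 1441 to 1538 in CAC and from 542 to 68 in Con.

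Genes of neighbouring regions fell in CAC, 10 of 14 striatal members at a median of -0.228 and 9 of 12 thalamic members at -0.152. The share of all genes that fell was 18.2%. None of the striatal members fell without replicate 1 at 2 wk, 6 fell without replicate 1 at 8 wk, and 2 fell without all libraries rich in striatal genes, at a median of -0.039. The thalamic list stayed at 6 falling members without them. The summed TPM of the striatal list was 425 to 2440 at 2 wk and 363 to 421 at 8 wk, and that of the thalamic list 237 to 589 and 158 to 197. Choroid plexus genes had none past the threshold of 13, with library means from -2.75 to 1.66 log2 around the median library. The part of dissection in the calls of single genes was not tested beyond these fits.

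**Figure D5:**
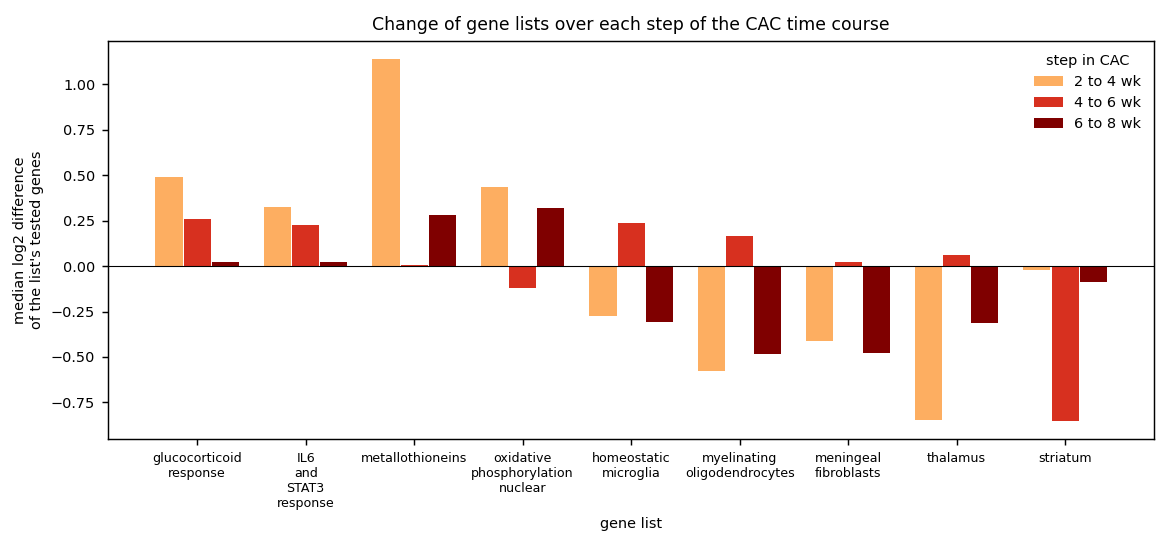
Median log2 difference of the tested members of 9 gene lists (y axis) over the steps from 2 to 4, 4 to 6 and 6 to 8 wk in CAC (bars). The glucocorticoid list rises by 0.489, 0.257 and 0.021, and the myelinating oligodendrocyte list changes by -0.577, 0.163 and -0.485.

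From 2 to 4 wk 320 genes rose (2.05%) and 178 fell (1.14%) in CAC. The count was 0 without the libraries rich in striatal genes, 0 when the 21 CAC libraries were fitted alone, and 1 without replicate 1 at 2 wk. Over all alternatives and libraries left out, the step of Lrg1 stayed between 1.35 and 3.27 and that of Ugt8a between -1.28 and -0.81 log2. The largest rises were Hist1h2al (2.33 log2, adjusted p = 0.0472), C1qtnf4 (1.91), Npcd (1.86), Lrg1 (1.84 ± 0.37, adjusted p = 0.0152) and S100a9, a calprotectin subunit of neutrophils and monocytes (1.84, adjusted p = 0.0386). The largest falls were Shox2 (-2.07), Epn3 (-1.55), Ugt8a (-1.07 ± 0.28, adjusted p = 0.0295), Trf (-1.03 ± 0.26, adjusted p = 0.0248) and Syt9 (-0.99). Trf, the iron carrier transferrin made by oligodendrocytes, was 399, 286, 234 and 356 TPM at 2 wk and 199, 82.1, 207, 93.3 and 258 at 4 wk. The 2 ranges of Trf overlapped only through replicate 5 at 4 wk.

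The 2 to 4 wk step differed from that in Con in 591 genes upward (3.79%) and 467 downward (2.99%). In Con this step had 5 higher (0.032%) and 65 lower genes (0.416%). Oxidative phosphorylation genes were higher in 24 of 32 and ribosomal protein genes in 23 of 38, none being lower. The 2 arms moved in opposite directions: the mean of the oxidative phosphorylation list against the median library went from -0.52 to -0.03 in CAC and from 0.06 to -0.38 in Con, and that of the ribosomal list from -0.45 to 0.01 and from 0.04 to -0.39. The mean slope of expression on gene length went from 0.081 to 0.013 in CAC and from -0.024 to 0.059 in Con. Its part in these differences was not tested beyond removal of the GC and length trend, and the counts of these 2 lists after that removal are not given here. Spink8 was higher by 1.17 ± 0.24 log2 (adjusted p = 0.0031), and the noncoding growth arrest gene Gas5 by 1.07 ± 0.19 (adjusted p = 0.00192). By the rule for named genes, Rps12 (7.75), Rab26os (2.71) and C1qtnf5 (2.65) led the higher and Syt9 (-1.44), Myo5c (-1.31) and Fam19a4 (-1.23) the lower differences. Only Syt9 kept its call in every alternative and left-out fit, and Fam19a4 lost its call in 9 of 11 alternatives. Rps12, a ribosomal protein gene with near-identical copies, swung from 0 to 294 TPM within CAC, and its value is uncertain. Without the libraries rich in striatal genes the split was 184 higher and 60 lower, and with the GC and length trend removed 403 and 124.

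From 4 to 6 wk no gene passed with limma, 1352 had an unadjusted p under 0.05 and the smallest adjusted p was 0.0638. The smallest p values belonged to genes of lower mean at 6 wk, among them Lingo2, a neuronal adhesion protein, at 7.35 to 8.24 TPM at 4 wk and 5.42 to 6.64 at 6 wk (-0.38), and Shcbp1l at 1.75 to 2.72 and 1.11 to 1.90 (-0.53). The ranges of Lingo2 did not overlap. Median-of-ratios scaling called 4 genes, the GC and length removal 10 and voom on recovered reads 3.

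From 6 to 8 wk 13 genes fell (0.0833%) and none rose, and no gene passed without replicate 3 at 8 wk. The largest falls were Clec4a3 (-0.95), Tnfaip6 (-0.68), Tspan2 (-0.62), Fcgr3 (-0.46) and Ankrd26 (-0.37), with adjusted p of 0.0411, 0.0429, 0.0393, 0.0411 and 0.0474. Fcgr3, an Fc receptor of microglia, was 13.6, 25.5, 16.1, 13.1 and 15.4 TPM at 6 wk and 10.2 to 12.9 at 8 wk. Tnfaip6, a hyaluronan binding protein, was 10.5, 12.5, 13.7, 10.4 and 11.8 TPM at 6 wk and 5.37 to 9.58 at 8 wk. In both genes the 2 weeks did not overlap, and the high value of Fcgr3 in replicate 2 at 6 wk was shared by Clec4a3, at 3.73 against 1.16 to 2.21 in the other 4 libraries. All 5 calls were lost without that library, without 6 wk replicate 3, without 8 wk replicates 1, 3, 6 or 7, and under median-of-ratios scaling, where no gene passed. In Con this step had 544 higher and 2773 lower genes (3.49% and 17.8%), and no gene passed the test of the difference between CAC and Con.

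Against NCAC, the slopes that were higher in CAC were led by Scgb3a1, Rtp1, Tmem252, Spink8 (0.22, adjusted p = 0.00246) and Fas, the death receptor (0.21, adjusted p = 0.0355). Fas was 1.75 to 2.78 TPM at 2 wk and 4.06 to 6.78 at 6 wk, without overlap, and 2.52 to 7.0 at 8 wk, the lowest being replicate 3. The lower slopes were led by Serpinb1a, a neutrophil elastase inhibitor (-0.26, adjusted p = 0.0355), Enpp6, Bche, butyrylcholinesterase (-0.17, adjusted p = 0.0466), Nes and Gpr153 (-0.16, adjusted p = 0.0466). Serpinb1a was 21.1, 12.4, 12.2 and 17.6 TPM at 2 wk and 2.67 to 10.2 at 8 wk, the highest being replicate 3. Apart from Spink8, each of these lost its call when only CAC and NCAC libraries were fitted. Each of them also lost it in some of the 40 fits with 1 library left out, from 12 for Serpinb1a to 27 for Gpr153. Spink8 kept its call in all of those fits. Without replicate 3 at 8 wk, the slope differed from Con, besides Spink8, for Scgb3a1 (0.66), Lrg1 (0.38), Fas (0.22), Cdkn1a (0.32), Ly6c1 (0.14), Gkn3 (-0.43), Apln (-0.16), Serpind1 (-0.32) and Slc40a1 (-0.14) among the 17 genes past the threshold. That fit had the most slope differences from Con of the 41 with a library left out.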

How the data were processed

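RNA of hippocampus was sequenced in 60 libraries, of which the 21 labelled CAC are described. Per the labels' protocols, RNA was extracted with Trizol, and a stranded mRNA kit (TruSeq) and a NovaSeq instrument were used. That protocol text also names an LLC tumour, which matches no group. The authors deposited 1 table of TPM for 47643 gene symbols, built on mm10 per the submitters' processing notes. Aligner, counter, annotation and strand setting were not given in the sources used here. Scaling by length and total leaves in TPM any unequal recovery of transcripts by length or GC content. TPM steps gave whole reads, within 0.02 of a read, for all 24227 genes above 0 in a library (100%), and 70.4% of their lengths matched the exon union of GENCODE M21. No table column was left unused.

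Group means of log2(TPM + 0.5) were fitted over all 60 libraries in 12 groups with limma 3.58.1 in R 4.3.3, with an intensity trend in the variance (48 residual degrees of freedom). This scale understates changes of low genes. P-values were adjusted by Benjamini-Hochberg over 15608 genes, with a threshold of 0.05. Errors are SE unless given as a range. Slopes, steps and their differences from Con and NCAC are contrasts of these means. CAC at 2 wk holds replicates 1, 2, 4 and 5 of the labels.

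Named genes were the 10 largest slopes in each direction, the 5 largest steps or slope differences and the 3 largest step differences past the threshold, leaving out predicted genes and means under 1 TPM, and the 3 smallest p where none passed. From each of the 48 gene lists, textbook markers and pathways, members with the smallest p were named. Further list members, Gas5 in the 2 to 4 wk step and the genes given without replicate 3 at 8 wk were chosen after their values were seen. The members and lists were chosen with earlier results of these data known. Coordinates and promoters are from GENCODE M21 and RefSeq (GRCm38.p6).

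Alternatives were other pseudocounts (0.1 and 1), filters, median-of-ratios scaling, robust fitting, library weights, a replicate block, fits of the compared groups alone, each library left out, and correction for GC content and transcript length by splines of 5 degrees of freedom (15043 genes, 96.4%). Chosen after seeing the data were voom, with median-of-ratios scaling, applied to recovered reads, which called 3936 genes for the trend in CAC, and fits without 4 libraries, 3 of them CAC, whose striatum, thalamus or cortex list mean exceeded the median library by 1 log2. The statistics were tested on simulated data. Some genes that the naming rule picks are not reported here. Each gene list is a description, with no test of its own.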

Additional observations from a re-analysis of the deposited data

Results flagged for a closer look

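Among 172 groups of CAC libraries checked, for 35 genes and 8 gene lists at each week, 17 values (9.88%) lay apart from the other libraries of their group by Dixon's criterion. Chance alone meets it in about 1 group in 20 where values are normally distributed. The gene values were TPM without a log, and only genes and lists described in the text were checked. The share therefore does not measure a departure from chance. High values at 2 and 4 wk included Shox2 at 17.7 TPM in replicate 1 at 2 wk, where the striatum list also stood out at 3.40 log2 above the median library, and Zic1 at 32.5 and Scgb3a1 at 9.73 in replicate 4 at 4 wk. Ly6c1 was 47 TPM in replicate 1 at 2 wk, above the others, and 48.6 in replicate 3 at 8 wk, below them. Replicate 3 at 8 wk also held the highest Lcn2, at 6.55 TPM. Serpind1 was 10.8 TPM in replicate 2 at 2 wk and 11.1 in replicate 5 at 4 wk. At 6 wk, Plin4 reached 62.1 TPM and P2ry13 was low at 11.7 in replicate 1, Fcgr3 was 25.5 in replicate 2, and Gkn3 was 2.02 in replicate 5. At 8 wk, Tspan2 was 92.7 TPM in replicate 2 and Shox2 0.0843 in replicate 5. The choroid plexus list stood apart at -0.18 in replicate 4 at 4 wk and -2.75 in replicate 6 at 8 wk.

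Of the genes named by the rule, those below passed the test of a difference in change over time between CAC and another group. They are part of the 22 slope differences from NCAC and of the 1058 differences from Con in the 2 to 4 wk step. Against Con the slope of Spink8 differed by 0.23 log2 per week. Against NCAC the slope differed by 0.53 for Scgb3a1, 0.49 for Rtp1, 0.36 for Tmem252, 0.22 for Spink8 and 0.21 for Fas, and by -0.26 for Serpinb1a, -0.21 for Enpp6, -0.17 for Bche, -0.17 for Nes and -0.16 for Gpr153. The 2 to 4 wk step differed from Con by 7.75 log2 for Rps12, 2.71 for Rab26os, 2.65 for C1qtnf5, -1.44 for Syt9, -1.31 for Myo5c and -1.23 for Fam19a4. Of these 2 to 4 wk calls, only that of Syt9 was kept in every alternative and every fit with a library left out. Fam19a4 lost its call in 9 of 11 alternatives and 13 of 41 left-out fits. The losses were 4 of 12 and 12 of 41 for Myo5c, and 5 of 13 and 9 of 41 for Rps12. They were 1 of 13 and 1 of 41 for Rab26os, and 1 of 13 and 2 of 41 for C1qtnf5.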

How the results depend on the processing

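Recovered depth was 34728327 to 39110246 reads per CAC library. Whether read depth or the spread between libraries sets the limits, for low genes above all, was not tested. The causes of the changes below were not tested beyond the construction of each fit. For the trend in CAC, the 4286 genes past the threshold became 2525 with CAC libraries alone, 2831 with GC and length removed, and 2714 to 4619 with a library left out (without 2 wk replicate 1 and 4 wk replicate 1). For the step 2 to 4 wk in CAC, 498 genes became 284 without a filter, 0 with CAC alone, 0 without the libraries rich in striatal genes, 1307 with the replicate block, and 1 to 1184 (without 2 wk replicates 1 and 5). The 4 to 6 wk count of 0 became 4 with median-of-ratios scaling, 10 with GC and length removed, 3 with voom, and 0 to 6. The 13 genes of the 6 to 8 wk step became 1 without a filter, 0 with median-of-ratios scaling, with CAC alone, with the replicate block and with voom, 8 with library weights, 7 with GC and length removed, and 0 to 349 (without 6 wk replicates 2 and 4).

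The single slope difference from Con became 89 with library weights, 2 with the replicate block, 5 without the rich libraries, and 1 to 17. The 22 slope differences from NCAC became 8 without a filter, 12 at a mean TPM of at least 5, 54 with median-of-ratios scaling, 1 with only the groups compared, 246 with library weights, 82 with GC and length removed, 14 without the rich libraries, 38 with voom, and 2 to 162. For the step 2 to 4 wk in CAC minus Con, 1058 genes became 2205 with weights, 527 with GC and length removed, 244 without the rich libraries, and 376 to 1704 (without 2 wk replicates 2 and 5). For the 4 to 6 wk difference from Con, 1 gene passed with only the groups compared and 1 with GC and length removed. For the 6 to 8 wk difference these were 1 and 1, and library weights gave 2, while leaving out a library gave 0 to 0 in both.

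Whether the replicate numbers pair the libraries is not settled. Same-numbered CAC libraries had a median correlation of deviations of 0.07 (-0.20 to 0.36), over 0.1 in 10 of 27 pairs. Different-numbered CAC libraries had a median of -0.01 (-0.38 to 0.39), over 0.1 in 28 of 136 pairs. The same and different medians were 0.07 and -0.03 in NCAC and -0.01 and 0.00 in Con. Of 204 results of single genes, 195 passed and 106 of these passed in every planned and added alternative that tested them. With GC and length removed 3 reversed: the slopes of Clock (0.0020), Bax (-0.03) and Psmb2 (-0.0010).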

Other observations

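Among heat shock genes, the inducible chaperones Hspa1b and Hspa1a rose from means of 1.95 to 9.65 and 1.93 to 7.32 TPM, beside Con slopes of 0.20 and 0.14, while the constitutive Hsp90aa1 fell from 1230 to 1050. Of 14 heat shock members 3 rose and 5 fell, beside 9.23% and 18.2% of all genes, and the falling count was 1 without 2 wk replicate 1 and 2 without 2 wk replicate 2 or 8 wk replicate 1. Somatostatin (Sst) rose from 198 to 415 TPM and cholecystokinin (Cck) from 119 to 248, with Con slopes of 0.13 and 0.21 beside 0.16 and 0.17 in CAC. Bdnf fell from 20.7 to 16.2 TPM. Of 20 neuropeptide and neurotrophin genes 4 rose and 6 fell, and 3 fell without 2 wk replicate 1 or 8 wk replicate 1.

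Genes of insulin, IGF and FoxO signalling fell in 5 of 18 tested members and rose in 2, counts near the 18.2% and 9.23% of all genes, so only single members are described. Akt2 fell from 47.7 to 34.3 TPM (-0.07 ± 0.01, adjusted p = 0.000385 with limma) and Fbxo32, the ubiquitin ligase that marks atrophy in muscle, fell from 15.2 to 9.12 (-0.12 ± 0.02, adjusted p = 0.000727). Metabotropic glutamate receptor Grm3 fell from 40.6 to 19.8 TPM (-0.15 ± 0.03, adjusted p = 0.000201), beside a Con slope of -0.04.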
